A study of Mus musculus with 6 samples.

Results

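Antisense genes are genes whose RNA is copied from the strand opposite to another gene, and 96 of them with many reads in the mouse kidney are described here. They were the genes of the type antisense in GENCODE M21, matched by Ensembl identifier, that had at least 400 reads over the 6 libraries together. The deposited table held 54532 genes, 2855 of them antisense, and 519 antisense genes passed the filter on low counts. Tsix was left out by the rule. The 96 genes were thus chosen by their read totals, which are sums over both groups and use no difference between them. These totals ran from 401 to 25105 with a median of 661.5, and 67 of the genes had fewer than 1000 reads. Just inside the limit were Gm15122 with 401 reads, Gm10138 with 402 and 9530082P21Rik with 408, and just outside it 1700034H15Rik with 394, Gm11696 with 391 and Slc13a2os with 387.

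RNA came from whole kidneys of male mice on a C57BL/6 background that carried KsprtTA alone (Control) or KsprtTA together with TRE-adiponectin (KSPAPN). The Ksp promoter drives the doxycycline-dependent activator rtTA in the kidney's epithelial tubules, and all mice of both groups ate chow with doxycycline at 600 mg/kg for 4 days. Each library was a pool of 3 mice, with 3 libraries per group, so that the spread between libraries was a spread between pools. The labels called the Control genotype WT, and their extraction text spoke of liver while the tissue was given as kidney. No source used here states the ages of these mice. The libraries held 17183358 to 20871173 reads on genes. Adipoq, which encodes adiponectin, had 2, 0 and 2 reads in the Control libraries and 24629, 17483 and 26811 in the KSPAPN libraries. Markers of the proximal tubule (12 of 12) and of the loop, distal tubule and collecting duct (12 of 12) passed the filter on low counts in these libraries.

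An antisense RNA can arise from the far end of its partner gene, from a promoter shared with it, or from within its introns. Some act on the chromatin of the neighbouring gene, as Airn and Kcnq1ot1 do at imprinted clusters, and many have no known role. Where an antisense and a coding gene overlap, only reads on bases that belong to a single gene can be assigned without using the strand. The library protocol given by the study describes no marking of strand, and no source used here states the strand setting of the counting. Where strand is not used, reads from a gene and from its antisense partner on the same bases cannot be told apart. Of the 76 antisense genes of the table with no exonic base free of other genes' exons, 74 had 0 reads in all libraries and none had more than 4, whereas 28.57% of the other 2779 had 0 reads.

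By position, 91 of the 96 genes overlapped at least 1 protein-coding gene on the other strand and 5 overlapped none. The partner of each gene was taken as the coding gene with the longest overlap, and 19 of the antisense genes overlapped more than 1. A head-to-head arrangement, in which both genes start inside the overlap, was found for 35, and in 16 of these the annotated starts were at most 1000 bases apart. Another 26 were tail-to-tail, 25 lay within the coding gene and 5 spanned it. The median exonic length was 2196 bases, against 1577 bases for the 423 antisense genes that were tested but had fewer reads. A median of 89.03% of the exonic bases was free of exons of any other gene, 22 genes were free over all of their exons and 5 over less than 50%. In 11 genes every exonic base lay in introns of the partner.

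The promoter windows of 2 pairs are shown, one of an antisense gene that fell and its partner and one of an antisense gene with many reads and its partner. RefSeq (GRCm38.p6) gives windows from 250 bases before to 50 bases after the start for 46 of the 96 antisense genes and for 63 of their partners. CG dinucleotides, the sites of DNA methylation, are in capitals. The windows are 0610031O16Rik at chr3:138239614-138239913 on the minus strand, Adh7 at chr3:138217523-138217822 on the plus strand, Tug1 at chr11:3648765-3649064 on the minus strand and Morc2a at chr11:3649187-3649486 on the plus strand.
0610031O16Rik: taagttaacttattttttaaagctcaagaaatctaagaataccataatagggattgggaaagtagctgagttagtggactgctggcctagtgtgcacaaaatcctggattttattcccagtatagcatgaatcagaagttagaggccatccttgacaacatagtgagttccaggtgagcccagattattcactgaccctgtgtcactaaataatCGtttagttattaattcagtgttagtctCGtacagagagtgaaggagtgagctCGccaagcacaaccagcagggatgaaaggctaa
Adh7: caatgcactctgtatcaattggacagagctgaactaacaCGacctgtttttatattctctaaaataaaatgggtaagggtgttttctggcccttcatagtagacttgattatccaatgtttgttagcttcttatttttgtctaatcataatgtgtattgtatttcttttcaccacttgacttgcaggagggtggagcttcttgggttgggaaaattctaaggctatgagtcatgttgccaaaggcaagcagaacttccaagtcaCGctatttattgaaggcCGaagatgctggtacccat
Tug1: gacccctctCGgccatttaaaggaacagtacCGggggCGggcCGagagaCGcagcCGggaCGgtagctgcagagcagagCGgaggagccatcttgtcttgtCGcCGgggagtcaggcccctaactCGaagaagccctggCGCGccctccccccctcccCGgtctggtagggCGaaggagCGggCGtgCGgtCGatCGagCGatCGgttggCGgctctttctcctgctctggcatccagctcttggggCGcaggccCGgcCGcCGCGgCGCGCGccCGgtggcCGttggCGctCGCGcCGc
Morc2a: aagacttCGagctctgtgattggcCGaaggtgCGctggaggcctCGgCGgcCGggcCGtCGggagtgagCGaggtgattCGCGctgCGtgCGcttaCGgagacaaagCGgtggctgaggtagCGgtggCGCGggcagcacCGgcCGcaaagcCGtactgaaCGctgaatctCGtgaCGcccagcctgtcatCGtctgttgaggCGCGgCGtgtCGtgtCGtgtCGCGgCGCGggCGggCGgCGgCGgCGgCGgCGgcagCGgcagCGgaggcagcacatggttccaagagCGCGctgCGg

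The windows of 0610031O16Rik and Adh7 held 3 CG each, and those of Tug1 and Morc2a 37 and 46. The median was 7 CG per window over all 32851 RefSeq promoters, 11.5 over the 46 antisense genes and 23 over the partners in a head-to-head arrangement. The Tug1 and Morc2a windows point away from each other, lie 122 bases apart and both hold many CG. By GENCODE, Tug1 starts at 3649673, outside its RefSeq window, so the head-to-head overlap rests on another start than the window printed here. The GENCODE start of 0610031O16Rik, at 138240405, likewise lies outside its RefSeq window. The letters TATAAA, searched on both strands, occurred once in the Adh7 window and not in the other 3, and were found in 13.62% of all promoters. The letters CCAAT, also searched on both strands and not overlapping TATAAA, occurred 2 times in the Adh7 window, once in those of 0610031O16Rik and Morc2a, and in 37.41% of all promoters. Gm31774 and Hsd17b2 had no entry.

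Reads were compared between the groups with edgeR's quasi-likelihood test over all 16017 genes that passed the filter, and a gene was called at a Benjamini-Hochberg adjusted p under 0.05. All 96 antisense genes passed the filter and had reads in every library, the fewest being 13. Of the 96, 2 fell in KSPAPN kidneys, Gm31774 and 0610031O16Rik, and none rose. The share called was 2.65% over all genes tested, 2.25% lower and 0.393% higher, and 0.385% over the antisense genes tested. DESeq2 called 7 of the 96 at an adjusted p under 0.05, 6 lower and 1 higher (4930481A15Rik). It called 6.88% of the 13621 genes to which it gave an adjusted p. At an unadjusted p under 0.05 there were 21, of which 16 were lower and 5 higher, against a background of 18.7% of all genes (11.2% lower and 7.52% higher) and 10.2% of antisense genes (7.71% lower and 2.5% higher). The values of the 3 Control and 3 KSPAPN libraries did not overlap for 27 genes, 18 lower and 9 higher, where 24.5% of all genes did not overlap. None of the 96 was called without Control 1 or without Control 2, 1 without KSPAPN 3, and 3 without KSPAPN 1 or without KSPAPN 2, while over all genes the calls went from 424 to 39 without Control 1.

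The log2 fold changes, KSPAPN over Control, ran from -2.16 to 0.71 with a median of -0.053, and 73 of the 96 lay within 0.5 of 0. The median over all genes tested was 0.012. In 44 of the 96 the change was above 0 and in 52 below it, as it was in 48.1% of all genes. A change of 2-fold or more was found in 4, all lower in KSPAPN, namely Gm31774, 0610031O16Rik, Gm15848 and Gm45645.

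**Figure D1:**
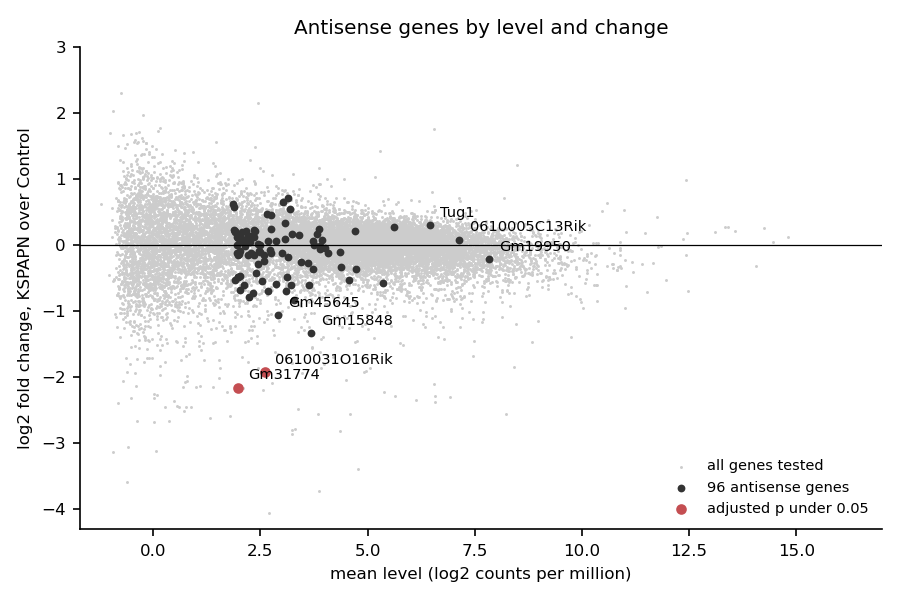
Log2 fold change (KSPAPN over Control) against mean level in log2 CPM, with all genes tested in grey, the 96 antisense genes in black and the 2 called at an adjusted p under 0.05 in red. Most antisense genes lie within 0.5 of 0, the red points lie near -2, and 2 genes past the upper end of the axis, Adipoq among them, are not drawn.

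Gm31774 (ENSMUSG00000110494) had the largest change of the 96. It is a gene of 2 exons on the minus strand at chr8:117746331-117748260 (GRCm38), and all of its exonic bases lie in introns of Hsd17b2 (chr8:117701904-117759027), which encodes the enzyme that oxidizes estradiol and testosterone to less active steroids. It was covered by 105, 112 and 114 reads in Control 1 to 3 and by 13, 22 and 50 in KSPAPN 1 to 3. Scaled to library size as CPM, Control ran from 5.82 to 6.69 and KSPAPN from 0.583 to 2.49. The highest KSPAPN library was below the lowest Control library. The log2 fold change was -2.16 (SE 0.41), a level 4.46-fold lower, with an adjusted p of 0.0255 by edgeR. In single fits without Control 1, Control 2, Control 3 or KSPAPN 2 the edgeR adjusted p was 0.0972, 0.0676, 0.0527 and 0.0622.

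Hsd17b2 fell with it. It stood at 21.2, 20.3 and 16.6 CPM in Control and 4.13, 8.998 and 7.01 CPM in KSPAPN, again without overlap. The log2 fold change was -1.54 (SE 0.25) at an edgeR adjusted p of 0.0141, and the adjusted p was 0.0793 without Control 1 and 0.0708 without KSPAPN 3. Per length, Hsd17b2 stood at 9.79 ± 1.25 FPKM (SD, n = 3) in Control and Gm31774 at 4.54 ± 0.341 FPKM. The log2 ratio of Gm31774 to Hsd17b2 reads was -1.59 on average in Control and -2.37 in KSPAPN, the libraries overlapped, and the difference of -0.78 (SE 0.35) had an adjusted p of 0.478 by limma. Because every base of Gm31774 is intronic in Hsd17b2, reads of unspliced Hsd17b2 RNA and reads of Gm31774 cannot be told apart if strand was not used. Mphosph6, a nearby gene for a cofactor of the RNA exosome, had a log2 fold change of 0.018 (SE 0.18, edgeR adjusted p 0.973).

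0610031O16Rik (ENSMUSG00000099146) was the other gene that fell. It runs over 8 exons on the minus strand of chr3:138210716-138240405 and spans Adh7 (chr3:138217760-138233382), a dehydrogenase of retinol and other alcohols. Of its exonic bases 95.6% were free of other exons, but 51.4% lay in introns of Adh7. On these, reads of unspliced Adh7 RNA cannot be told apart from its own if strand was not used. Control libraries had 199, 197 and 99 reads and KSPAPN libraries 23, 66 and 58, and the level fell from 9.50 ± 3.2 to 2.53 ± 1.4 CPM (SD, n = 3). Control 3 stood between the other Control libraries and the KSPAPN libraries, which did not reach it. This was 3.79-fold lower, a log2 fold change of -1.92 (SE 0.41) at an edgeR adjusted p of 0.0388. The edgeR adjusted p was 0.175 without Control 1, 0.109 without Control 2 and 0.123 without KSPAPN 3.

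Adh7 had CPM of 7.86, 6.40 and 4.22 in Control and 0.942, 5.09 and 2.98 in KSPAPN, so that the groups overlapped. Its log2 fold change of -1.06 (SE 0.47) did not pass the test (edgeR adjusted p 0.260). The log2 ratio of 0610031O16Rik to Adh7 reads was 0.60 in Control and -0.13 in KSPAPN, and every KSPAPN library lay below every Control library. The difference of -0.73 (SE 0.27) had an adjusted p of 0.406 by limma, and the exact permutation test over 20 arrangements gave its smallest possible p, 0.1. Adh1, a nearby class I alcohol dehydrogenase gene that was chosen after its values were seen, fell by 1.09 on the log2 scale (SE 0.19, edgeR adjusted p 0.0180).

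Gm15848 (ENSMUSG00000086706) missed the threshold but moved in the same direction as its partner. It has 6 exons on the minus strand at chr1:130809977-130824084 and is tail-to-tail with Fcamr (chr1:130800902-130814740), a receptor for the Fc part of IgA and IgM. No exonic base of Gm15848 lies on an exon of Fcamr, and 29.2% lie in its introns. Reads numbered 374, 374 and 206 in Control against 92, 185 and 149 in KSPAPN, with Control 3 the lowest of the Control libraries here too. Its log2 fold change of -1.34 (SE 0.31) had an edgeR adjusted p of 0.0546. It was past the threshold without Control 3 (0.0354) and without KSPAPN 2 (0.0357). Without Control 1, Control 2, KSPAPN 1 or KSPAPN 3 the edgeR adjusted p was 0.216, 0.150, 0.0504 and 0.175.

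Fcamr fell from 27.7, 23.4 and 15.95 CPM in Control to 5.11, 9.67 and 7.06 CPM in KSPAPN. The log2 fold change was -1.62 (SE 0.25) at an edgeR adjusted p of 0.0131, with 0.0765 without Control 1 and 0.0715 without KSPAPN 3. In both genes Control 3 was the lowest Control library and KSPAPN 1 the lowest of all, and their log2 ratio differed by 0.25 (SE 0.23) between groups (adjusted p 0.739 by limma). Pigr, the receptor that carries polymeric IgA across epithelia and lies next to them, was chosen after its values were seen. It stood at 326, 199 and 78.7 CPM in Control and 20.1, 64.1 and 39.1 CPM in KSPAPN (log2 fold change -2.30, SE 0.49, edgeR adjusted p 0.0384).

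Gm15879 (ENSMUSG00000084790) did not pass the test while its partner fell. It lies head-to-head with Dnase1, a secreted nuclease, with starts 905 bases apart, at chr16:4032839-4037847, and 49.3% of its exonic bases lie on exons of Dnase1. Dnase1 fell from 639, 554 and 405 CPM in Control to 83.8, 174 and 186 CPM in KSPAPN (log2 fold change -1.85, SE 0.27, edgeR adjusted p 0.0101, and 0.0534 without Control 1). Gm15879 had 95, 84 and 61 reads in Control and 71, 59 and 70 in KSPAPN, with a log2 fold change of -0.47 (SE 0.23, edgeR adjusted p 0.315). The log2 ratio of Gm15879 to Dnase1 reads rose from -6.84 to -5.38, a difference of 1.46 (SE 0.31), with an adjusted p of 0.0498 by limma over 453 antisense pairs. It was the only one of the 86 tested pairs past that threshold, which 0.442% of all antisense pairs passed.

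**Figure D2:**
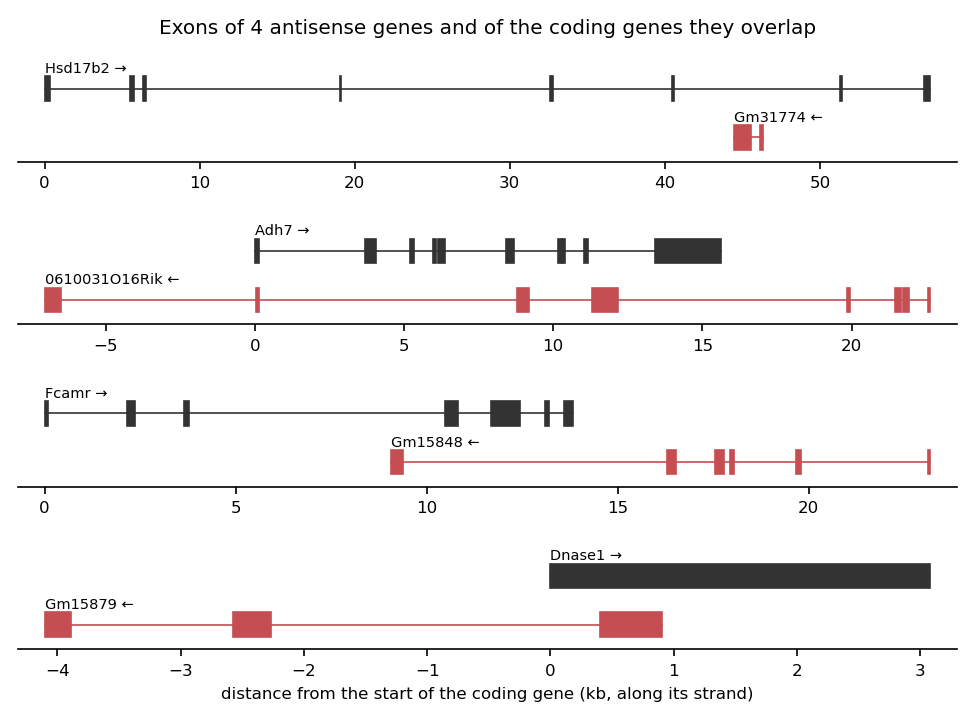
Exon maps of 4 antisense genes (red) and of the coding genes they overlap (black), against the distance in kb from the start of the coding gene along its strand, with arrows for the direction of transcription. Gm31774 lies between exons of Hsd17b2, 0610031O16Rik runs past both ends of Adh7, Gm15848 meets the end of Fcamr, and Gm15879 covers the start of Dnase1.

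**Figure D3:**
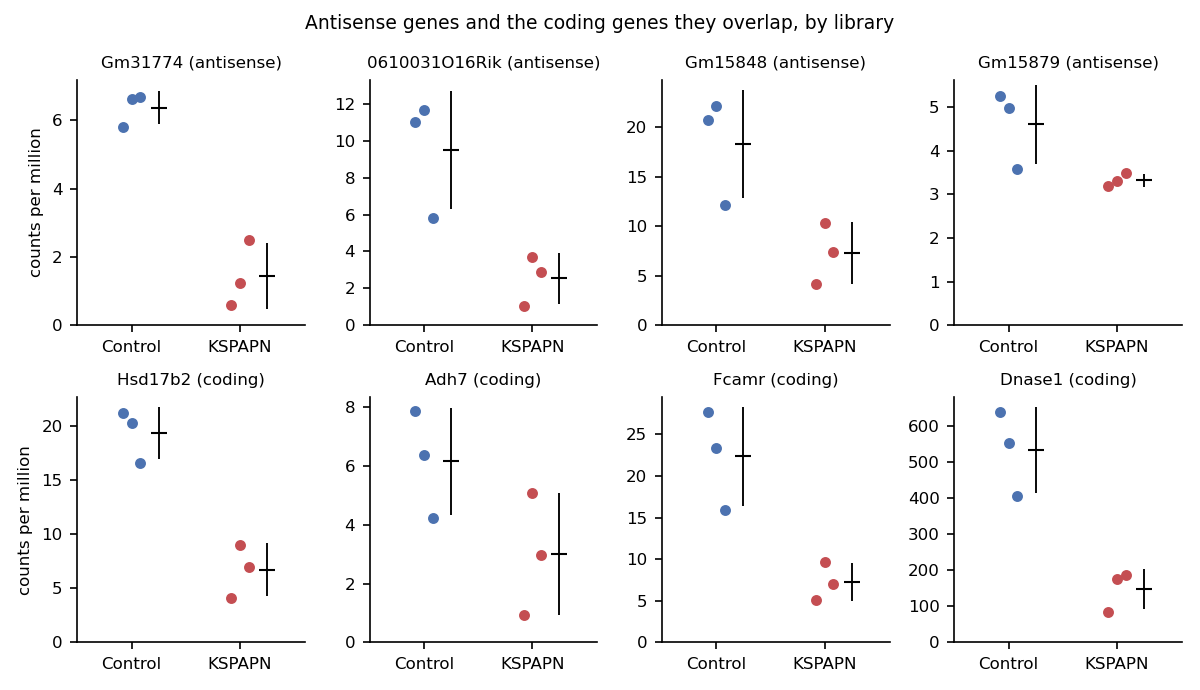
Level in CPM of the same 4 antisense genes (upper row) and coding genes (lower row) in each library (points), with the mean and SD of 3 libraries (cross and bar), on axes that start at 0. The KSPAPN points lie below all Control points in every panel but that of Adh7, where KSPAPN 2 lies above Control 3.

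None of the 10 genes with the most reads passed the test (edgeR, 4 at an unadjusted p under 0.05), and DESeq2 called 1 of them, Gm15638. Gm19950, 0610005C13Rik and Tug1 together took 36.29% of the 139932 reads on the 96 genes. Gm19950 (chr7:119607681-119643469) lies wholly in introns of Acsm1, an acyl-CoA synthetase of mitochondria, and was the highest of the 96 per length too, at 52.3 ± 3.33 FPKM in Control and 45.2 ± 13.1 FPKM in KSPAPN (SD, n = 3). Control libraries gave 234, 261 and 235 CPM and KSPAPN libraries 145, 259 and 228 CPM, so that KSPAPN 1 alone stood low. The log2 fold change was -0.21 (SE 0.18, edgeR adjusted p 0.570), and 0.020 without KSPAPN 1.

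Gm45792 (chr7:119626519-119631058) sits inside the span of Gm19950 on the same strand, and all of its exonic bases are likewise in introns of Acsm1. Control libraries stood at 46.5, 50.04 and 49.2 CPM and KSPAPN libraries at 24.5, 45.6 and 28.5 CPM. Every KSPAPN library was below every Control library, with KSPAPN 2 just below, and the log2 fold change of -0.57 (SE 0.19) had an edgeR adjusted p of 0.148. Without KSPAPN 2 the edgeR adjusted p was 0.0140, and without each other library it ran from 0.219 to 0.404. Acsm1 itself stood at 183, 201 and 170 CPM in Control and 194, 170 and 197 CPM in KSPAPN, with a log2 fold change of 0.018 (SE 0.10). Neither antisense gene shares an exonic base with the other or with Acsm1, and reads of unspliced Acsm1 RNA cannot be told apart from reads of either if strand was not used.

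0610005C13Rik (chr7:45567794-45575327) is head-to-head with Bcat2, the mitochondrial aminotransferase of branched-chain amino acids. It gave 137, 134 and 139 CPM in Control and 144, 151 and 140 CPM in KSPAPN. The groups did not overlap, but the log2 fold change was 0.081 (SE 0.082, edgeR adjusted p 0.646), and Bcat2 changed by 0.0061 on that scale (SE 0.092).

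Tug1 (chr11:3639785-3649673), a long noncoding RNA named for its response to taurine, had 1370, 1324 and 1367 reads in Control and 2023, 1852 and 1915 in KSPAPN. In CPM the libraries were tight and apart, at 75.9, 78.4 and 80.2 in Control and 90.7, 104 and 95.2 in KSPAPN. The log2 fold change of 0.30 (SE 0.088) had an edgeR adjusted p of 0.0981. That adjusted p was 0.0440 without KSPAPN 1 and 0.204 to 0.332 without each other library. With the correction for GC content and length the log2 fold change was 0.10 (edgeR adjusted p 0.552). Its head-to-head partner Morc2a, an ATPase of gene silencing, whose CG-rich window is printed above, had a log2 fold change of 0.035 (SE 0.088). The log2 ratio of Tug1 to Morc2a reads was 0.93 in Control and 1.2 in KSPAPN, without overlap between libraries (limma SE 0.17, adjusted p 0.611).

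The other 6 of the 10 most counted did not pass the test either. Brip1os spans Ints2, a subunit of the Integrator complex, and had CPM of 38.9, 48.5 and 44.3 in Control and 50.7, 52.9 and 56.4 in KSPAPN (log2 fold change 0.28, SE 0.10, edgeR adjusted p 0.183). 4933431E20Rik had 22.7, 24.5 and 24.6 CPM in Control and 25.5, 28.2 and 29.4 in KSPAPN (log2 fold change 0.21, SE 0.11, edgeR adjusted p 0.347). Both were thus higher in each KSPAPN library than in each Control library. The partner of 4933431E20Rik by length of overlap was Eps8l3, with 63 reads in all. It also overlapped Gstm5, a glutathione S-transferase, which had 41090 reads and rose by 1.22 on the log2 scale (SE 0.14, edgeR adjusted p 0.00581).

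Gm15638, tail-to-tail with Plcxd2, had 28.5, 31.98 and 22.8 CPM in Control and 15.9, 21.3 and 20.3 in KSPAPN, without overlap (log2 fold change -0.53, SE 0.16, edgeR adjusted p 0.109), while Plcxd2 was at 0.049 (SE 0.22). Gm13111, which overlaps no coding gene of the other strand, had 38.5, 25.2 and 24.8 CPM in Control and 24.7, 19.7 and 24.6 in KSPAPN (log2 fold change -0.36, SE 0.18, edgeR adjusted p 0.314), and its log2 fold change was -0.12 without Control 1. In Gm16170, tail-to-tail with the ubiquitin ligase gene Trim7, KSPAPN 1 was the only low library at 9.78 CPM, against 22.6 and 22.5 CPM in the other KSPAPN libraries and 20.7, 23.1 and 25.2 CPM in Control, and its log2 fold change of -0.33 (SE 0.26) became -0.0085 without it. Gm15962 showed the same low value in KSPAPN 1, at 14.2 CPM against 22.9 and 21.8, and its log2 fold change of -0.11 (SE 0.18) became 0.10 without that library. It is tail-to-tail with Keg1, and 55.9% of its exonic bases lie on exons of Keg1. Trim7 and Keg1 were at -0.47 (SE 0.16, edgeR adjusted p 0.161) and -0.31 (SE 0.18, edgeR adjusted p 0.381), with KSPAPN 1 the lowest library in both.

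**Figure D4:**
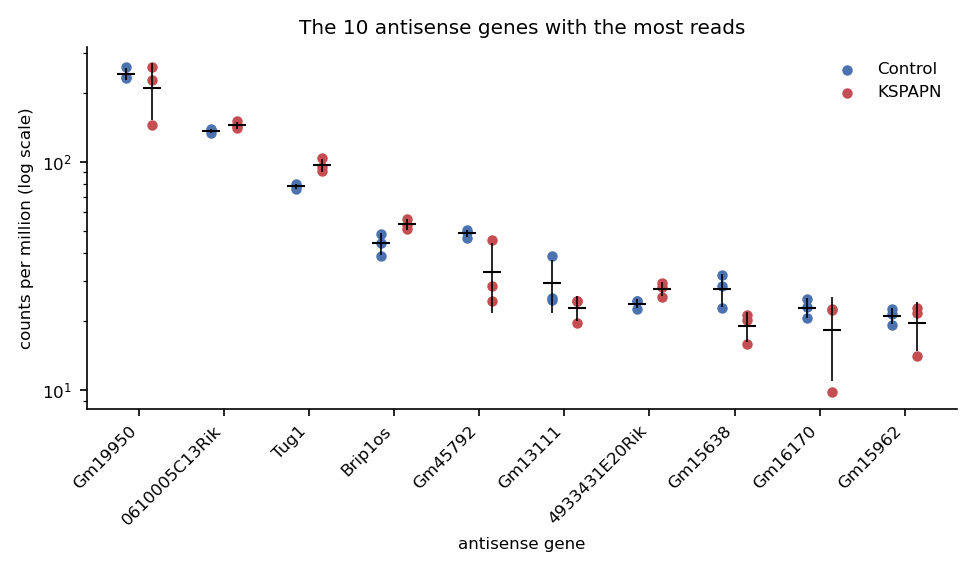
Level in CPM on a log scale of the 10 antisense genes with the most reads, by library (points) with the mean and SD of 3 libraries. KSPAPN 1 lies below every Control point in Gm19950, Gm45792, Gm16170 and Gm15962, and Tug1 is among the genes that are higher in all KSPAPN libraries.

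The 5 largest positive changes were all under 2-fold and none passed the test with edgeR (3 at an unadjusted p under 0.05), while DESeq2 called 4930481A15Rik (adjusted p 0.0492). Gm26782, head-to-head with the telomerase and vault protein gene Tep1 at a distance of 236 bases between starts, had 4.98, 8.05 and 6.69 CPM in Control and 9.24, 9.44 and 13.5 CPM in KSPAPN (log2 fold change 0.71, SE 0.23, edgeR adjusted p 0.128). 4930481A15Rik, tail-to-tail with the transcriptional corepressor gene Drap1, had 93, 103 and 124 reads in Control and 219, 185 and 183 in KSPAPN (log2 fold change 0.66, SE 0.18, edgeR adjusted p 0.0890). In both genes the groups did not overlap, and the partners were at -0.057 (SE 0.11, Tep1) and -0.17 (SE 0.12, Drap1) on the log2 scale.

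Panct2 (chr1:96871126-96907796) starts 1045 bases inside Slco4c1, an organic anion transporter gene of the tubule, in a head-to-head arrangement. Panct2 had 5.65, 8.35 and 7.86 CPM in Control and 9.37, 12.2 and 10.2 CPM in KSPAPN, and Slco4c1 36.6, 46.3 and 38.9 and then 50.9, 58.9 and 52.5 CPM. Both were higher in every KSPAPN library, with log2 fold changes of 0.54 (SE 0.20, edgeR adjusted p 0.175) and 0.41 (SE 0.11, edgeR adjusted p 0.0840). Gm15122, in an intron of the RNA-binding protein gene Dazap1, and Sp3os, which overlaps the transcription factor gene Sp3, were at 0.62 (SE 0.29) and 0.57 (SE 0.27), and their libraries overlapped.

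Among the negative changes, Gm45645 and Gm15347 followed the 3 described first. Gm45645, within Erc2, a scaffold gene of the synapse, varied widely inside both groups, at 8.03, 15.5 and 6.86 CPM in Control and 2.29, 7.77 and 4.58 CPM in KSPAPN. The groups overlapped, and the log2 fold change of -1.06 (SE 0.41) had an edgeR adjusted p of 0.202 and was -0.62 without Control 2. Gm15347, tail-to-tail with the phospholipid flippase gene Atp11a, had 16.5, 8.11 and 12.1 CPM in Control and 6.05, 7.66 and 7.06 CPM in KSPAPN (log2 fold change -0.82, SE 0.24, edgeR adjusted p 0.105, and -0.55 without Control 1). DESeq2 called Gm15347 (adjusted p 0.0248). It has only 385 exonic bases, 55.3% of them free of other exons, and Atp11a itself was at -0.38 (SE 0.11, edgeR adjusted p 0.112).

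Of the 84 distinct partners that were tested, 3 fell and none rose, namely Fcamr, Dnase1 and Hsd17b2 (edgeR), where 2.92% of all protein-coding genes tested were called. At an unadjusted p under 0.05 there were 17 partners, 12 lower and 5 higher, against 20.1% of protein-coding genes. DESeq2 called 7 partners, 6 lower and 1 higher. Taking in each case the overlapping coding gene with the most reads changed the partner of 13 antisense genes, and 5 partners were then called. The median log2 fold change of the partners was 0.022.

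Across the 86 pairs with a tested partner, the log2 fold changes of antisense and coding gene had a Pearson r of 0.518 and a Spearman rho of 0.183. Both members of a pair come from the same libraries and many pairs share bases, so these values are a description. In 47 pairs both changes had the same sign and in 39 opposite signs. In the 80 pairs in which both changes were under 2-fold, r was 0.055. The r was 0.723 in the 28 pairs with at least 50% of the antisense exonic bases in introns of the partner and 0.315 in the other 58. The Spearman rho was lower, at 0.421 and -0.0065. By arrangement r was 0.255 in 33 head-to-head pairs, 0.418 in 25 tail-to-tail pairs and 0.685 in 23 pairs with the antisense gene inside the coding gene. Here too the Spearman rho was lower, at 0.074, 0.015 and 0.290. The difference between these values was not tested.

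**Figure D5:**
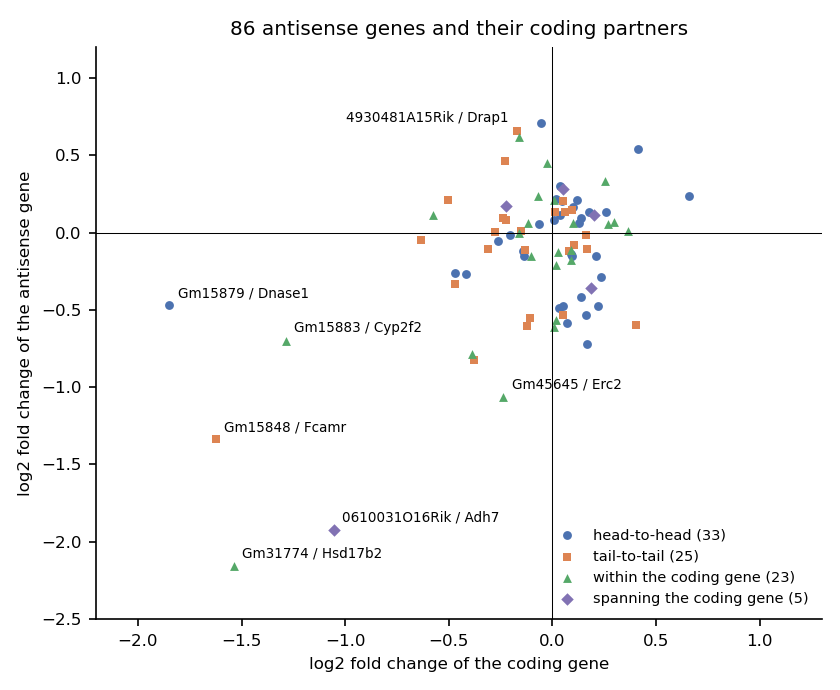
Log2 fold change of each antisense gene against that of its coding partner in 86 pairs, by arrangement. Most pairs crowd around 0, and the pairs of Gm31774, 0610031O16Rik and Gm15848 lie far down to the left while Gm15879 lies left of the others at -0.47.

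Within each library the partner usually had more reads, in 70 of 89 pairs with reads on both genes, and the antisense gene had more in 19. The log2 ratio of antisense to coding reads did not overlap between groups in 20 of the 86 tested pairs (23.3%), higher in 8 and lower in 12, where 15.7% of all 453 antisense pairs did not. The exact permutation test of 3 libraries against 3 cannot give a p under 0.1 for any of them. With limma, 21 pairs had an unadjusted p under 0.05, against 9.71% of all antisense pairs, and Gm15879 with Dnase1 alone passed after adjustment.

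By arrangement, the median log2 fold change was -0.019 in the 35 head-to-head genes, -0.064 in the 26 tail-to-tail genes, -0.0045 in the 25 genes within a coding gene, 0.12 in the 5 that span one and -0.36 in the 5 without a partner. Of the last, 3 did not overlap between groups, all lower in KSPAPN, where 24.5% of all genes and 17.3% of antisense genes did not overlap. These 3 were Gm13111, Gm4285 and Gm14257, the last 2 chosen after their values were seen. Gm4285 had 144, 137 and 126 reads in Control and 98, 112 and 77 in KSPAPN (log2 fold change -0.70, SE 0.22, edgeR adjusted p 0.121). Gm14257 had 90, 78 and 88 reads in Control and 54, 72 and 57 in KSPAPN (log2 fold change -0.68, SE 0.25, edgeR adjusted p 0.181).

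Levels per length spread widely over the 96 genes. In Control the mean FPKM ran from 0.138 to 52.3 with a median of 3.78, and 11 genes were above 10 FPKM. The lowest was Kcnq1ot1, whose annotated exon of 93092 bases lies inside Kcnq1, the gene of a potassium channel. This RNA of an imprinted cluster had 192, 226 and 264 reads in Control and 303, 321 and 303 in KSPAPN, and a log2 fold change of 0.24 (SE 0.17, edgeR adjusted p 0.506), with Kcnq1 at -0.068 (SE 0.12).

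Some further antisense genes next to well known regulators are given although the rule for named genes did not name them, and none of them passed the test with edgeR or DESeq2. Airn, which overlaps the receptor gene Igf2r at an imprinted cluster, had 6.15, 11.01 and 8.92 CPM in Control and 3.95, 6.20 and 7.26 CPM in KSPAPN (log2 fold change -0.58, SE 0.27, edgeR adjusted p 0.284), while Igf2r stood at 0.070 (SE 0.091). Hnf4aos, head-to-head with the hepatocyte nuclear factor gene Hnf4a, had 9.47, 11.5 and 9.15 CPM in Control and 5.83, 6.09 and 9.55 CPM in KSPAPN (log2 fold change -0.49, SE 0.22, edgeR adjusted p 0.263). The values of Hnf4aos overlapped by KSPAPN 3 alone, and Hnf4a was at 0.034 (SE 0.11).

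Gm15222, a gene of 1 exon in an intron of the growth factor gene Bmp4, had 6.26, 5.80 and 5.51 CPM in Control and 3.81, 3.07 and 3.28 CPM in KSPAPN (log2 fold change -0.79, SE 0.21, edgeR adjusted p 0.0780). Bmp4 was lower in every KSPAPN library as well, at -0.39 (SE 0.11, edgeR adjusted p 0.102). Gm15883, within the cytochrome P450 gene Cyp2f2, was at -0.70 (SE 0.28) and Cyp2f2 at -1.29 (SE 0.41), with edgeR adjusted p of 0.219 and 0.129.

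Hoxb5os lies at a Hox cluster, homeobox genes that pattern the body axis, and had 15.5, 13.4 and 15.02 CPM in Control and 11.6, 10.8 and 11.8 CPM in KSPAPN, without overlap (log2 fold change -0.36, SE 0.14, edgeR adjusted p 0.196). Its partner Hoxb6 was at 0.18 (SE 0.17). Hoxd3os1 and Hoxb3os were at 0.24 (SE 0.23) and -0.10 (SE 0.20), and their groups overlapped. Their partners Hoxd3 and Hoxb3 were at 0.66 (SE 0.29) and 0.17 (SE 0.19).

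The 96 genes as a whole took a small share of the reads. It was 0.127%, 0.126% and 0.127% of all reads on genes in Control and 0.114%, 0.130% and 0.127% in KSPAPN, with means of 0.126 ± 0.00044% and 0.124 ± 0.0082% (SD, n = 3). KSPAPN 1 stood low and the others stood together, and the two-sided exact permutation test gave p = 1. The share on lincRNA genes, long noncoding RNAs between genes, was 0.704 ± 0.063% in Control and 0.830 ± 0.074% in KSPAPN (exact permutation p = 0.2).

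Genes that process such transcripts gave counts near the share of all genes tested, 2.65% called and 18.7% at an unadjusted p under 0.05 (edgeR). Of 20 genes of the RNA exosome and of nuclear RNA decay that were found, none was called (3 at an unadjusted p under 0.05 with edgeR, 0 called by DESeq2) and the median log2 fold change was 0.028. Of 27 genes of the Integrator complex, polyadenylation and termination none was called either (5 unadjusted with edgeR, 0 by DESeq2), with a median of 0.041. All 4 long noncoding RNAs that stay in the nucleus, Kcnq1ot1 among them, were above 0 and Neat1, the RNA of paraspeckles, rose from 77.1 ± 4.08 to 111 ± 8.64 FPKM (SD, n = 3; log2 fold change 0.53, SE 0.11, edgeR adjusted p 0.0313).

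Markers of the tubule segments moved between the same libraries. Of 12 proximal tubule markers 11 were below 0 with a median log2 fold change of -0.24, and 3 fell, Slc22a6, an organic anion transporter, Slc7a13, an amino acid transporter, and Miox, an inositol oxygenase. The summed level of all 12 proximal tubule markers was 25661 to 37226 FPKM in Control and 18934 to 29658 FPKM in KSPAPN. Of 12 markers of the loop, distal tubule and collecting duct 8 were above 0, and 1 rose, the salt cotransporter gene Slc12a1. In the same list 3 were lower at an unadjusted p under 0.05 (edgeR) and 1 of them, the anion exchanger gene Slc4a1 with a log2 fold change of -0.71, was called by DESeq2. The summed level of this list was 1415 to 1615 FPKM in Control and 1367 to 1928 FPKM in KSPAPN. In whole kidney, fewer cells of a type and less RNA per cell cannot be told apart, and the part of these markers in the falls of Gm31774, 0610031O16Rik, Gm15848 and their partners was not tested.

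Markers of other cell types were called neither by edgeR nor by DESeq2. All 6 glomerular markers were above 0 (median 0.32), as were 6 of 8 endothelial and stromal, 4 of 5 erythroid and 3 of 6 tested leukocyte markers. Of 8 adipocyte markers 4 were tested and 3 of these were above 0, with a summed level of 9.41 to 9.94 FPKM in Control and 10.8 to 15.04 FPKM in KSPAPN. Cyp11b1 and Cyp11b2, defining enzymes of the adrenal cortex, had 0 reads, and 1 of 7 adrenal markers was tested and was not called. At an unadjusted p under 0.05 by edgeR there were 1 glomerular and 2 adipocyte markers and none of the other lists named in these sentences.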

How the data were processed

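Whole-kidney poly(A) RNA of 6 libraries, 3 Control and 3 KSPAPN, was sequenced, and groups were taken from the sample titles. Per the file headers, the authors deposited raw read counts per gene and FPKM. The counts are not normalized, and the deposited FPKM correct for library depth and gene length, against a total that is not stated. The submitters' processing notes name STAR 2.5, TopHat, HTSeq 0.6.1, DESeq2 and edgeR without their roles, and no source used here gives the genome build or the counting mode. Reads have no molecular identifiers. Replicate pools may share a spread that is partly technical.

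The members and lists were chosen with earlier results of these data known. Symbols, types and positions came from GENCODE M21 (GRCm38), which matched 54495 of 54532 identifiers, and its exonic lengths fitted the FPKM within 1% for 95.29% of 9420 genes. The deposited counts were fitted with edgeR 4.0.16 in R 4.3.3 (TMM, minimum count 10, minimum total 15, quasi-likelihood test, two-sided, Benjamini-Hochberg over all genes tested). SE is the log2 fold change over the square root of F. CPM used TMM-scaled totals. The log2 ratio of antisense to partner reads, with 0.5 added to each, was fitted with limma 3.58.1 over 453 pairs, a test chosen after seeing the data. Alternatives were DESeq2 1.42.0, other scalings, no filter, limma on log2 FPKM, a correction for GC content and length, a replicate block, other read limits, and each library left out. Both fits were tested on simulated data. Named are Adipoq, antisense genes called or with a called partner, the 10 with the most reads, the 5 with the largest change in each direction, their partners and called list genes. Genes outside this rule were chosen after their values were seen.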

Additional observations from a re-analysis of the deposited data

How the results depend on the processing

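All values below count genes at an adjusted p under 0.05 unless another quantity is named. Of the antisense genes, 2 were called with edgeR, against 7 with DESeq2, 5 with the GC content and length correction, 13 without the filter on low counts, 1 with total counts only, 0 with at least 800 reads (Gm31774 and 0610031O16Rik have fewer), and 0, 0 and 1 with limma on log2 FPKM plus 0.01, 0.1 and 1. Leaving out each library gave 0 to 3. Their median log2 fold change of -0.053 became 0.049 with the GC content and length correction, where the median of all genes was 0.043, and 0.011 with total counts only, where it was 0.081, and ran from -0.061 to 0.023 with each library left out. Of the partners 3 were called, against 7 with DESeq2, 1 with limma on log2 FPKM plus 0.01, 9 without the filter, 5 with the partner of most reads, and 0 to 4 with each library left out. The number of ratios without overlap was 20, and 27 to 31 with each library left out, where 3 against 2 libraries overlap less often by construction, and 1 ratio was called with limma. The difference in the share of reads on the 96 genes, -0.0027 percentage points, ran from -0.0056 to 0.0020 with each library left out.

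With each library left out the log2 fold change ran from -0.385 to 0.020 for Gm19950 and from -0.234 to 0.101 for Gm15962, above 0 without KSPAPN 1 only. Under these alternatives none of the other 19 antisense genes named by the rule changed sign, nor did Fcamr, Dnase1, Hsd17b2 or Adipoq, and the other partners were not rerun one by one. 0610031O16Rik was not called with total counts only (0.0528) or with limma on log2 FPKM (0.0772 to 0.101), nor Gm31774 with limma on log2 FPKM plus 0.01 or 0.1 (0.0658 and 0.0590). Gm15848 was called with DESeq2 (2.38e-04), with the GC content and length correction (0.0478), with the replicate block (0.0339) and without the filter. The causes were not tested.

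Same-numbered libraries correlated in their deviations from the group means by 0.0537, 0.154 and 0.173, each best with its own number. The labels name no shared litter or day, so whether the numbers pair the samples is not known, and the main fit did not pair them. With the replicate block 5 antisense genes and 5 partners were called, and over all genes 929 against 424. The SE was 0.25 to 0.29 in the 3 genes just inside the limit of 400 reads and 0.41 in Gm31774. It was also 0.41 in 0610031O16Rik with 642 reads and in Gm45645 with 805 reads. The part of depth in these values was not tested.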
